A study of Homo sapiens with 18 samples.

Results

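The genes examined were those that encode CTCF and the cohesin machinery, studied here in HEK293T, a transformed human cell line derived from embryonic kidney. They were CTCF, its paralog CTCFL, the cohesin subunits RAD21, SMC3 and STAG1, the cohesin loader NIPBL and its partner MAU2, and the cohesin regulators WAPL, PDS5A and PDS5B. These 10 genes were chosen by name from 19103 autosomal protein-coding genes of GENCODE release 44, and every peak sharing at least 1 bp with a gene body or the 10 kb on either side of it (the locus) was taken as a peak of that gene. ChIP-seq had been done with antibodies against H3K27ac and CTCF, on untreated cells (CTRL) and on cells given 1 mM valproic acid (VPA) for 1 day, with 3 libraries in each of the 4 groups. All groups were the same cell line and shared no other treatment. The labels do not say whether replicates came from separate cultures, so each p-value measures only the spread between these libraries, which may be technical. After the peaks of the 6 libraries of an antibody were merged wherever they shared 1 bp, the 10 loci held 64 of 55382 H3K27ac regions and 41 of 69985 CTCF regions. The X-linked SMC1A, STAG2 and HDAC8 were not analysed here, since all peaks lay on the 22 autosomes. The starts of CARMIL2, HMGB1P1 and SUGP1 lie in the loci of CTCF, CTCFL and MAU2, and peaks there cannot be assigned to a single gene.

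Cohesin is a ring built from SMC1A, SMC3, RAD21 and a STAG subunit. NIPBL, bound to MAU2, drives its loading and the extrusion of chromatin loops, WAPL releases it from chromatin, and PDS5A and PDS5B bind it and take part in both its release and its stabilisation. CTCF binds a long DNA motif through its zinc fingers and halts cohesin, so that loops end at CTCF sites. CTCFL shares these zinc fingers and is normally made in the male germ line. H3K27ac, an acetylated lysine of histone H3, marks active promoters and enhancers, and VPA inhibits the histone deacetylases that remove it. The comparison therefore asks whether the genes that organise loops carried more or less H3K27ac and CTCF after VPA.

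Several CTCF regions at these genes held a recognisable CTCF site under the summit. The HOMER CTCF(Zf) consensus, a motif of 20 bases, was searched within 100 bp of each summit on both strands with at most 5 mismatches. It was found in 14 of 37 regions (37.8%; 95% Wilson interval 24.1% to 53.9%, covering counting error only) of the loci other than RAD21, which was left out of the search, and in 21.0% of 66851 CTCF regions searched in the same way. In windows of the same length 2 kb beside the summits the share was 1.27%. The higher share at the 10 genes did not hold with at most 4 mismatches, where it was 8.11% beside 8.83% of all regions. The sites below are the 3 with at most 4 mismatches and those in regions described further on. Capitals mark the 20 bases of the match, with 10 flanking bases of hg38 on either side, each written 5′ to 3′ on the strand of the match, and the site beyond the 3′ end of MAU2, with 2 mismatches, was the closest to the consensus.
MAU2 beyond the 3′ end (chr19:19367013-19367052, minus strand): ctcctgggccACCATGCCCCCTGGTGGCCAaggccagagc
MAU2 within the gene (chr19:19342888-19342927, plus strand): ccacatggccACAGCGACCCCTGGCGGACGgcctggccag
CTCFL upstream of the start (chr20:57526651-57526690, minus strand): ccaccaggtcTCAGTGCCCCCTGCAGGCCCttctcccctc
CTCFL beyond the 3′ end (chr20:57495392-57495431, minus strand): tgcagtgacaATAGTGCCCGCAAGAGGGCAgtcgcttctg
PDS5B at the start (chr13:32586343-32586382, minus strand): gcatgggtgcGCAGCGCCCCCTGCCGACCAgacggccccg
PDS5B intron (chr13:32650870-32650909, plus strand): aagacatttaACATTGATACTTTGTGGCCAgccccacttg
SMC3 near the 3′ end (chr10:110600564-110600603, plus strand): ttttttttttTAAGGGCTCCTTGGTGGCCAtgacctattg
CTCF at the start (chr16:67562749-67562788, minus strand): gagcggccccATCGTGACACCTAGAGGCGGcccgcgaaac

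PDS5B and CTCFL were the members whose RefSeq promoter (GRCh38.p14, 250 bases before to 50 after the gene's start) held a match, among 9 members with an entry. Of 35116 promoter entries of this length, 2.74% held one, counted by entry and not by gene. The PDS5B promoter, which lies under the CTCF summit at this gene, has the match on the strand opposite to the gene, from 99 bases before the start, and is shown with the match in capitals.
PDS5B promoter (chr13:32586202-32586501, plus strand): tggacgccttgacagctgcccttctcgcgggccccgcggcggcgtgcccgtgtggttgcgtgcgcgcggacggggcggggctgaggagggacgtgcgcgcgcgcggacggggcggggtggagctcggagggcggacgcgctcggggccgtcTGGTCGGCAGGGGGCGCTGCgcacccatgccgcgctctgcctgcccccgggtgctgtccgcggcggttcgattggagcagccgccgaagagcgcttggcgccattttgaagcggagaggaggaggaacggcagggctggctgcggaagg
In the CTCFL promoter window that held a match, the closest match has 4 mismatches and lies on the strand of the gene, from 172 bases before the start. Only this closest match is marked in capitals. The window lies within the CTCF region of this gene, whose summit is farther upstream.
CTCFL promoter (chr20:57525603-57525902, minus strand): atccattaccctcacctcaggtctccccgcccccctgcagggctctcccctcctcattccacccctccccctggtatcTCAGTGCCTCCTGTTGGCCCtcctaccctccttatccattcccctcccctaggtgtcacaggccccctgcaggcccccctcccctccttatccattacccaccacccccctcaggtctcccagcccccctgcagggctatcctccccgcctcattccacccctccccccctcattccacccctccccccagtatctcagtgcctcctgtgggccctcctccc

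The peak lists give no read totals. Background coverage, a measure of relative depth recovered from the lists, ranged from 3.51 to 3.95 fragments. The median local background of the peaks was 22.3 fragments in H3K27ac CTRL replicate 1 against 8.82 to 9.94 in the other H3K27ac lists. It was 12.8 in CTCF VPA replicate 1 against 7.21 to 8.87 in the other CTCF lists. Over regions with a peak in all 6 libraries, median H3K27ac fold enrichment was 7.63 in CTRL replicate 1 and 7.52 in VPA replicate 1. In replicates 2 and 3 it was 15.3 to 17.2. For CTCF it was 15.0 and 12.4 in the replicate 1 libraries, against 42.5 to 45.3 in replicates 2 and 3. Fold enrichment over local background is thus not on the same footing in replicate 1 and in replicates 2 and 3. Levels are therefore given as the summit pileup, the number of fragments over the summit of the highest peak in a region, recovered from the deposited values. Over the regions that all 6 libraries shared, the median pileup was lower in VPA by 0.19 (log2) for H3K27ac and by 0.32 for CTCF, and the limma differences below are relative to the library medians, while pileups, their ratios and their overlap between groups are as recovered and include these shifts. H3K27ac lay at the start of the kidney factor genes LHX1 and SIX2 in all 6 libraries and at PAX2 in 0 of 6, and the blood, liver and pancreas genes PTPRC, CD3E, ALB and INS had it in 0 of 6.

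At the 9 starts with an H3K27ac peak in all 6 libraries, the pileup was lower in each VPA library than in the CTRL library of the same number, while limma called 0 of the 9 in fold enrichment and 3 with the replicate block. In the cohesin ring, the start of STAG1, which encodes a subunit bound to the kleisin of the ring (chr3:136746510-136754341, summit in an intron 0.396 kb into the gene), had pileups of 1546, 1031 and 916 fragments in CTRL replicates 1, 2 and 3 and of 758, 467 and 462 in the VPA replicates. The start of SMC3, an ATPase subunit of the ring (chr10:110565795-110570156, summit in exon sequence 0.363 kb into the gene), had 1279, 987 and 801 in CTRL and 702, 521 and 533 in VPA. At both genes every CTRL library lay above every VPA library, and the VPA mean was 0.483 of the CTRL mean at STAG1 and 0.573 at SMC3. At RAD21, the kleisin subunit that closes the ring (chr8:116871886-116875494), the pileups were 1030, 792 and 726 in CTRL and 643, 462 and 450 in VPA.

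The loader and the releasing factors showed the same order of the groups. The start of NIPBL (chr5:36871753-36879669, summit upstream of the start) had 945, 723 and 660 fragments in CTRL and 585, 431 and 409 in VPA. The start of MAU2 (chr19:19317851-19322857), shared with the start of SUGP1, had 602, 474 and 399 in CTRL and 391, 296 and 287 in VPA. The start of PDS5A (chr4:39975540-39978647) had 589, 440 and 412 in CTRL and 364, 263 and 278 in VPA. These groups did not overlap. WAPL (chr10:86519669-86523240), with 816, 641 and 509 in CTRL and 539, 375 and 361 in VPA, was lower within each replicate number, but VPA replicate 1 lay above CTRL replicate 3. PDS5B (chr13:32585619-32588832), with 858, 504 and 498 in CTRL and 555, 307 and 278 in VPA, behaved in the same way.

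CTCF and CTCFL differed. The start of CTCF (chr16:67560855-67570867) had 1154, 834 and 725 fragments in CTRL and 689, 449 and 500 in VPA, again with no overlap. The start of CTCFL (chr20:57524726-57527569) had no H3K27ac peak in either replicate 1 library, pileups of 40 and 26 in CTRL replicates 2 and 3, and 62 and 53 in the VPA replicates. The CTCFL levels were the lowest of the 10 starts, and with 2 libraries per treatment they entered no test. The plot of summit pileup by library shows all 10 starts.

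**Figure D1:**
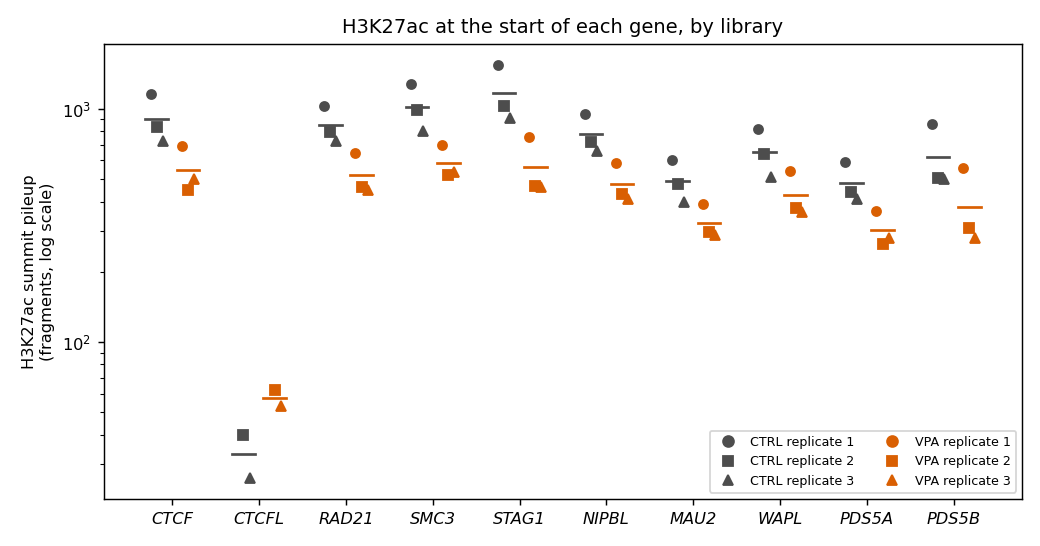
H3K27ac summit pileup (fragments, log axis) in the region at the start of each gene; symbols are the 3 CTRL (grey) and 3 VPA (orange) libraries and short lines the group means. In 7 of the 9 genes with a peak in all 6 libraries, every CTRL library lies above every VPA library; CTCFL has values in 4 libraries only.

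Over all shared H3K27ac regions, the pileup was lower in VPA within each of the 3 replicate numbers at 56.3%, and at 76.3% of those at a protein-coding start, beside 9 of the 9 starts here. The groups did not overlap at 7 of the 9, where the exact two-sided permutation test of 3 against 3 gives its smallest value, p = 0.1, beside 23.8% of all shared regions that were lower without overlap and 10.8% that were higher, and 31.2% of those at a start that were lower. In the limma test of log2 fold enrichment, 0 of the 15 H3K27ac regions with a peak in all 6 libraries at these loci passed an adjusted p of 0.05, and neither did any of the 18407 such regions in the genome (0%; 1347 at an unadjusted p under 0.05). Same-numbered H3K27ac libraries deviated together, and with the replicate number as a block limma called 3 regions lower in VPA, the starts of STAG1 (log2 difference -0.997, SE 0.207, adjusted p = 0.00946), PDS5B (-0.90, SE 0.230, adjusted p = 0.0234) and WAPL (-0.72, SE 0.206, adjusted p = 0.0342), against 6.08% of all shared regions lower and 6.87% higher. In the recovered pileup, an alternative added after seeing the data, limma called 8 starts lower, by 0.40 at MAU2 (SE 0.0769, adjusted p = 0.0134) to 0.86 at STAG1 (SE 0.140, adjusted p = 0.00876), against 22.5% of all shared regions lower and 12.2% higher. The start not called was PDS5B (-0.54, SE 0.202, adjusted p = 0.0874), which passed with the block (adjusted p = 0.00443). With pileup and block together 9 starts were called lower, against 29.6% of shared regions lower and 24.2% higher. Among 9422 shared regions at any protein-coding start, 33.2% were called lower in the pileup and the median log2 difference was -0.19, compared with a median of -0.52 over the 9 starts (range -0.86 to -0.40). These 9 were strong, with CTRL pileups of 399 to 1546, where the CTRL library medians over all shared regions were 260, 213 and 196. Starts of similar level were not compared separately, so the larger difference cannot be set apart from their level. The sign at NIPBL, RAD21 and CTCF flips in fold enrichment after quantile normalization (0.0332, 0.121 and 0.0368), and at 6 starts it flips in the rank within each list. Peak lists of bulk cells cannot tell fewer cells with the mark from less mark per cell. The pileups were not scaled to an external standard, so an absolute loss of the mark at the starts was not tested. The paper reported a significant increase of H3K27ac read coverage in active enhancer and promoter states after VPA. That measure covers whole regions rather than summits.

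Away from the starts, weaker H3K27ac regions had the opposite order at PDS5A and MAU2. The PDS5A region in an intron 6.75 kb into the gene (chr4:39970641-39971879) had pileups of 33, 24 and 22 in CTRL and 39, 51 and 42 in VPA, and every VPA library lay above every CTRL library. The region beyond the 3′ end of MAU2 (chr19:19360374-19362097) had 45, 44 and 43 in CTRL and 60, 62 and 60 in VPA and again no overlap. Of all shared H3K27ac regions, 10.8% were higher in VPA without overlap and 23.8% lower. In the recovered pileup the PDS5A and MAU2 regions were called higher in VPA by limma (log2 difference 0.95, SE 0.196, adjusted p = 0.0165 at PDS5A, and 0.66, SE 0.152, adjusted p = 0.0224 at MAU2). They were not called in fold enrichment, with or without the block (adjusted p of 0.0667 to 0.836). Of all shared regions away from a protein-coding start, 18.2% were called higher in the pileup and 11.3% lower. The block added the CTCF intronic region (chr16:67600369-67602235; 32, 43 and 41 in CTRL, 36, 60 and 42 in VPA) and a further region beyond the 3′ end of MAU2 (chr19:19362920-19367127; 177, 206 and 173 against 204, 215 and 201) in the pileup. With the block, 39.0% of all shared regions away from a start were called higher and 16.2% lower. The RAD21 intronic region (chr8:116868844-116871191) had 42, 53 and 47 in CTRL and 37, 35 and 37 in VPA, again with no overlap. Its direction depended on the measure, since the log2 difference in fold enrichment was 0.0181 and its rank within the list was called higher in VPA by limma (by 8.15 percentile points, adjusted p = 0.0364). In the rank, 40.6% of all shared H3K27ac regions were called higher and 0.766% lower. The CTCFL region upstream of its start (chr20:57528618-57531070) had overlapping values, 62, 48 and 45 in CTRL and 47, 53 and 44 in VPA. Its rank within the list was called higher in VPA by limma as well (by 15.5 percentile points, adjusted p = 0.0339). The plot of the change against the level sets the 15 regions side by side.

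**Figure D2:**
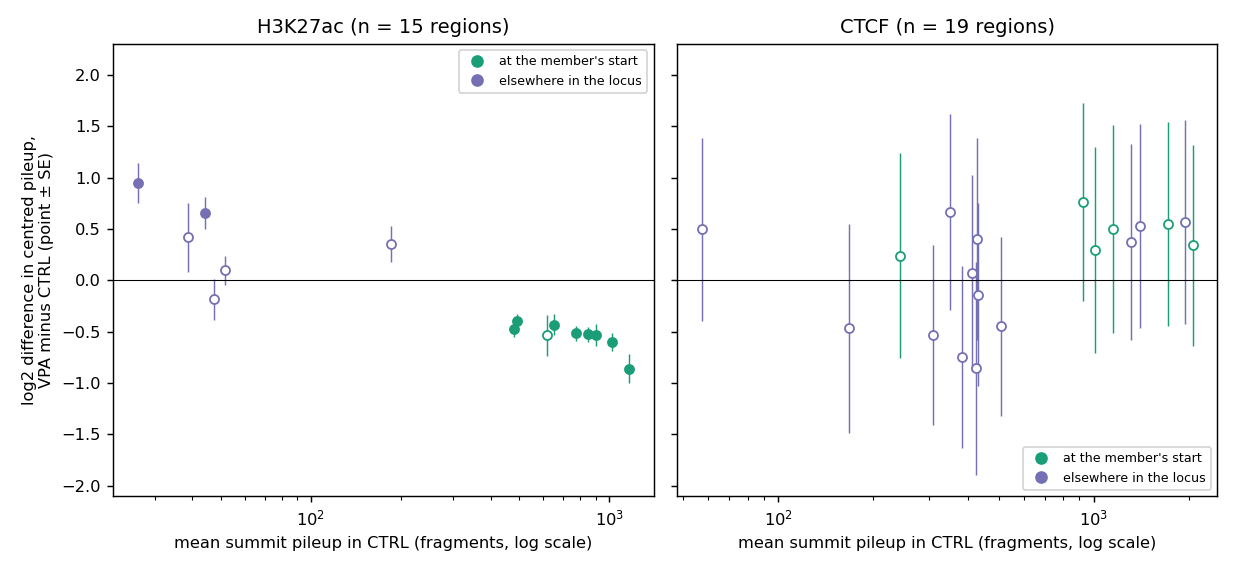
Log2 difference in library-centred summit pileup, VPA minus CTRL (point ± SE from limma, y axis), against the mean CTRL pileup (fragments, log x axis) for regions with a peak in all 6 libraries, H3K27ac on the left and CTCF on the right; filled points passed an adjusted p of 0.05. The 9 H3K27ac starts (green) lie between -0.86 and -0.40, and none of the 19 CTCF points is filled.

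More H3K27ac peaks were found at STAG1 and PDS5A after VPA. The CTRL libraries had 25, 26 and 30 H3K27ac peaks over the 10 loci together, and the VPA libraries 42, 39 and 42. The whole lists grew as well, from 26299, 29583 and 29799 peaks in CTRL to 38441, 40992 and 40817 in VPA. At STAG1 the CTRL libraries had 3, 2 and 4 and the VPA libraries 7, 8 and 9. PDS5A, a partner of WAPL on the ring, had 3, 2 and 2 in CTRL and 7, 5 and 6 in VPA. The groups did not overlap at these 2 genes (exact permutation test, two-sided, p = 0.1, the smallest possible), against 12.1% of 16034 genes with any H3K27ac peak that were higher in VPA without overlap and 0.175% that were lower. That share covers genes of any length, and STAG1 spans 416 kb and PDS5A 155 kb. NIPBL (190 kb) and PDS5B (192 kb) are long as well and did not separate. The other 8 genes overlapped, and NIPBL had 2 peaks in each of the 6 libraries. WAPL had 1, 1 and 3 in CTRL and 1, 2 and 3 in VPA. With the replicate block an exact sign-flip test gave p = 0.25, the smallest that 3 pairs allow, at STAG1 and PDS5A, and no further gene was higher in all 3 pairs, beside 19.3% of all genes with H3K27ac. When each list was cut to the length of the shortest, 0 genes kept groups that did not overlap.

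The length of DNA under H3K27ac peaks separated the treatments at more genes. CTCF had 7323, 7465 and 8438 bp in CTRL and 12148, 13820 and 11605 bp in VPA, although its number of peaks overlapped (6, 5 and 4 against 8, 5 and 4). PDS5A had 3851, 3071 and 3149 bp in CTRL and 6515, 7436 and 7672 bp in VPA. STAG1 had 6876, 8176 and 8872 bp in CTRL and 10219, 11735 and 12133 bp in VPA. MAU2 and PDS5B also had groups without overlap, with means of 7242 ± 1033 bp and 2315 ± 212 bp in CTRL and 10025 ± 1072 bp and 3198 ± 322 bp in VPA (SD, n = 3). These 5 of 10 genes stand beside 31.6% of all genes with H3K27ac that were higher without overlap and 0.187% that were lower. With the replicate block, 8 genes were higher in all 3 pairs, the 5 and CTCFL, SMC3 and NIPBL, beside 73.7% of all genes with H3K27ac. RAD21 (3168, 5167 and 3684 bp against 2007, 6767 and 4417 bp) and WAPL (3159, 3454 and 4275 bp against 3100, 4075 and 4054 bp) overlapped and were not higher in all 3 pairs.

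**Figure D3:**
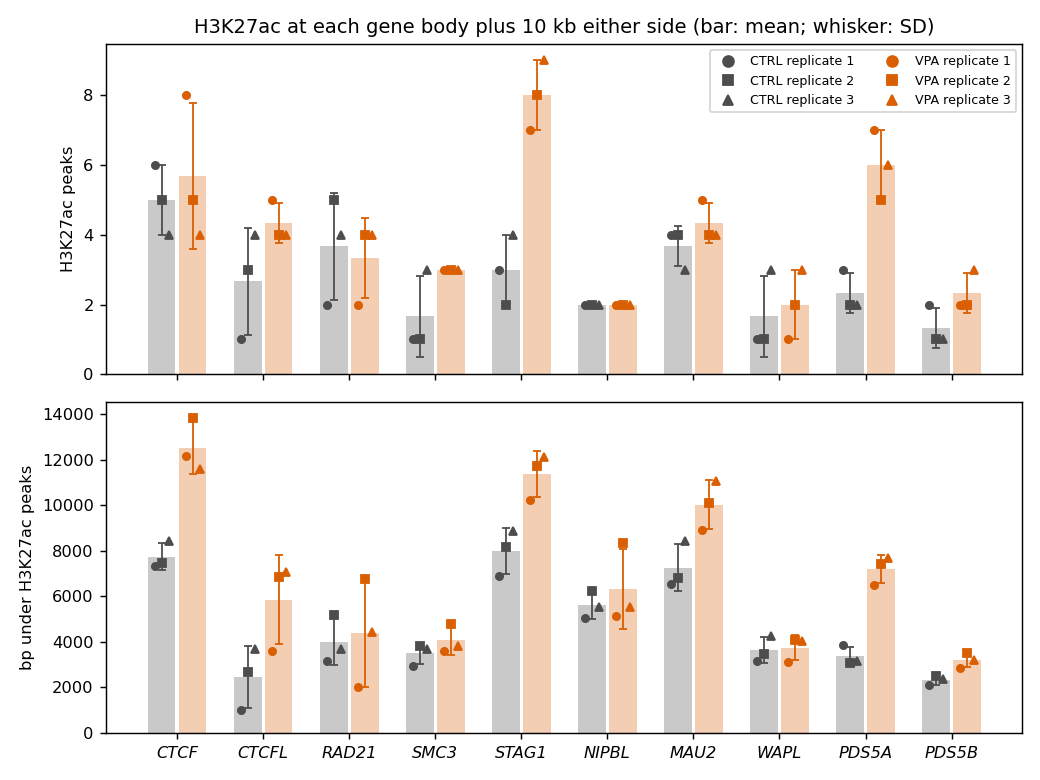
Number of H3K27ac peaks (top) and bp under H3K27ac peaks (bottom) at each gene body plus 10 kb either side; bars are means of 3 libraries, whiskers SD and symbols single libraries. STAG1 and PDS5A separate in both panels, and CTCF, MAU2 and PDS5B in the bottom panel only.

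The added peaks at STAG1 and PDS5A were weak and mostly found in a single library. Of the 64 H3K27ac regions at the 10 loci, 35 (54.7%) had a peak in VPA and in no CTRL library, compared with 39.4% of all regions. STAG1 held 13 of the 35 and PDS5A 7, but 28 of the 35 were found in a single VPA library, as were 14375 of the 21817 such regions in all. Their highest pileups ran from 14 to 40 fragments (median 20.0), where the lowest pileup called in a list was 11 or 12. In the opposite direction, 3 regions had a peak in CTRL and in no VPA library, 2 at WAPL and 1 at RAD21, which is 4.69% beside 5.20% of all regions.

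Only 2 regions had a peak in all 3 VPA libraries and in no CTRL library (4.12% of all H3K27ac regions were of this kind), and 0 had the reverse (0.139%). The PDS5A region lies beyond the 3′ end of the gene (chr4:39814683-39817626), with pileups of 40, 37 and 28 in the VPA replicates. The SMC3 region lies upstream of the gene (chr10:110557273-110557749), with 25, 27 and 23, and straddles the outer edge of the locus, with its summit outside. Both lie outside the gene body, and neither remained when the lists were cut to equal length. When VPA replicate 1 was left out the count was 5.

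**Figure D4:**
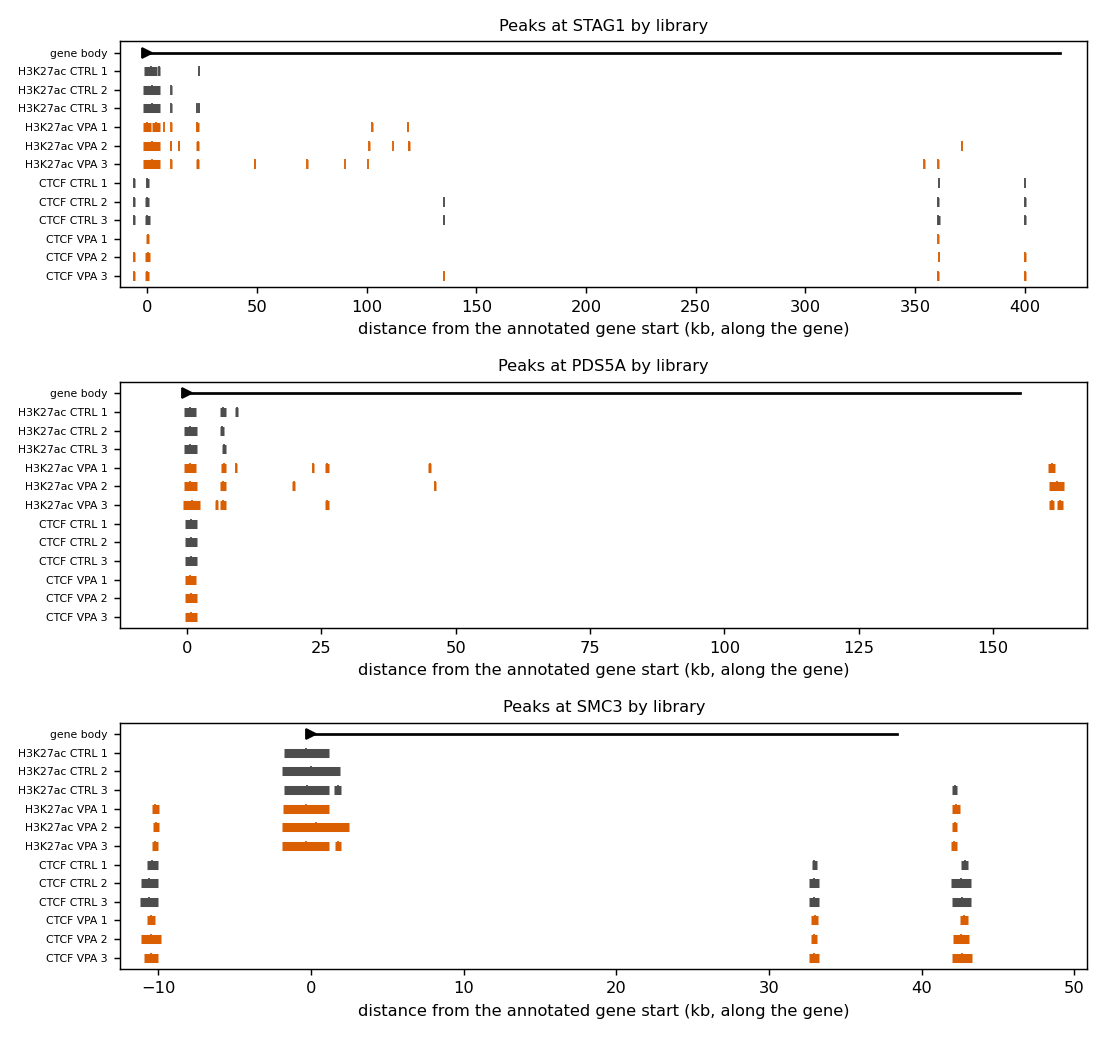
Peaks of the 12 libraries at STAG1, PDS5A and SMC3 (rows; CTRL grey, VPA orange) by distance from the annotated gene start in kb along the gene, with the gene body as a black line and peaks up to 1.5 kb beyond the locus. In STAG1 and PDS5A the added VPA peaks lie in introns, mostly at positions found in a single library, and the peaks beyond the 3′ end of PDS5A are shared by all 3 VPA libraries; at SMC3 a VPA H3K27ac peak lies beside the upstream CTCF peak.

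Some of the regions without CTRL H3K27ac lay on CTCF regions. The SMC3 region above shares bases with the CTCF region upstream of SMC3 (chr10:110556515-110557842), which had a CTCF peak in all 6 libraries. In PDS5B, an H3K27ac region found in VPA replicates 2 and 3 (chr13:32650588-32650983; 20 and 27 fragments) lies on the intronic CTCF region whose motif is shown above. In MAU2, a region of the same 2 libraries (chr19:19342481-19343092; 36 and 28 fragments) lies on the CTCF region within the gene. Of the 7 regions with H3K27ac in 2 or 3 VPA libraries and no CTRL library, 3 (42.9%) shared bases with a CTCF region, compared with 31.1% of the 7442 regions of this kind in all. Over the 35 regions in any VPA library the overlap was 7 (20.0%), compared with 23.4% in all.

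No CTCF region at the 10 genes passed the limma test between treatments. The CTRL libraries had 24, 32 and 33 CTCF peaks over the loci, and the VPA libraries 27, 30 and 35. In 0 of 10 genes did the peak counts separate, against 0.39% of 16918 genes higher in VPA and 0.875% lower, and in 0 of 10 the bp under CTCF peaks, against 1.26% higher and 1.86% lower. No CTCF region was found only in VPA or only in CTRL (0.186% and 0.326% of all regions). Of the 19 CTCF regions that all 6 libraries shared, 0 passed limma's adjusted p of 0.05, as did 0 of 27794 in the genome (0%; 83 at an unadjusted p under 0.05). The 19 log2 differences in fold enrichment ran from -1.12 to 0.71, with a median of 0.14 beside 0.10 over all shared CTCF regions. The SEs of these differences ran from 0.637 to 0.682. A difference larger than its SE was not enough to pass, since -1.12 (SE 0.677) in an intron of CTCF was not called. The smallest log2 difference that limma could call here was not tested. The CTCF pileups overlapped between treatments at all 19, beside 2.01% of shared CTCF regions lower without overlap and 0.18% higher. The bp under peaks within a region separated at 1 of the 19, the start of CTCFL, with 1351, 1591 and 1723 bp in CTRL and 1790, 1960 and 1740 bp in VPA (exact permutation test, two-sided, p = 0.1), beside 3.05% of all shared regions that were wider without overlap and 1.83% that were narrower.

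The strongest CTCF regions lay at gene starts, within MAU2 and beyond its 3′ end. By mean rank in the lists the highest was the start of CARMIL2 downstream of CTCF (chr16:67644384-67645415), with pileups of 2984, 1592 and 1258 in CTRL and 4874, 1584 and 1297 in VPA. The highest in its own locus was at the start of STAG1 (chr3:136751375-136753454; 3018, 1692 and 1481 against 4315, 1457 and 1256), PDS5B (chr13:32585923-32587525; 2649, 1379 and 1139 against 4355, 1315 and 1166), PDS5A (chr4:39976188-39978445; 1914, 829 and 718 against 2864, 821 and 709), CTCFL (chr20:57525350-57527309; 1298, 791 and 681 against 2418, 919 and 792) and NIPBL (chr5:36875357-36876909; 400, 189 and 140 against 461, 156 and 125). The CTCF gene carried CTCF at its own start (chr16:67562193-67563743), on the site printed above, with 1518, 860 and 661 in CTRL and 2254, 646 and 565 in VPA. In MAU2 the leading region lay within the gene (chr19:19342430-19343923; 2237, 1079 and 895 against 3342, 1061 and 948). The MAU2 region beyond the 3′ end (chr19:19366537-19367974; 1945, 1102 and 882 against 2226, 1103 and 863) had a mean rank of 93.7, above the 91.3 of the PDS5A start. In SMC3 the leading region lay upstream of the gene (chr10:110556515-110557842; mean rank 67.8). RAD21 and WAPL held no CTCF region shared by all 6 libraries. The start of RAD21 had 51 and 38 fragments in CTRL replicates 2 and 3 and 22 in VPA replicate 3, and the region upstream of WAPL (chr10:86523279-86523856) had a peak in 2 libraries of each treatment.

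Replicate 1 stood apart at many of these CTCF regions. At the 8 shared regions at a protein-coding start, replicate 1 was higher than replicates 2 and 3 at 7 in CTRL and 7 in VPA (median log2 ratio 1.04 and 1.74). At the 11 others it was higher at 5 and 4 (medians -2.04 and -1.11, lowest -3.84 and -3.11). Over all shared CTCF regions the medians were 1.06 in CTRL and 1.70 in VPA at starts, and 0.23 and -1.16 elsewhere, so that in CTRL the median was above 0 in both. The lowest ratios belonged to an intronic CTCFL region (chr20:57513952-57514911), with 43, 675 and 561 in CTRL and 64, 585 and 520 in VPA. At SMC3, CTRL replicate 1 was low at all 3 regions, with the region beyond the 3′ end (chr10:110609609-110610961) at 54, 626 and 594 in CTRL and 72, 46 and 525 in VPA, and its upstream region at 51, 602 and 583 in CTRL and 66, 319 and 510 in VPA. The third SMC3 region, in exon sequence near the 3′ end (chr10:110600285-110600989), had 22, 251 and 229 against 41, 25 and 241. In VPA replicate 2 the signal at SMC3 was thus low in 2 of 3 regions where VPA replicate 3 was near the CTRL level. With replicates 2 and 3 only, 0 of the 19 regions passed limma's adjusted p of 0.05.

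**Figure D5:**
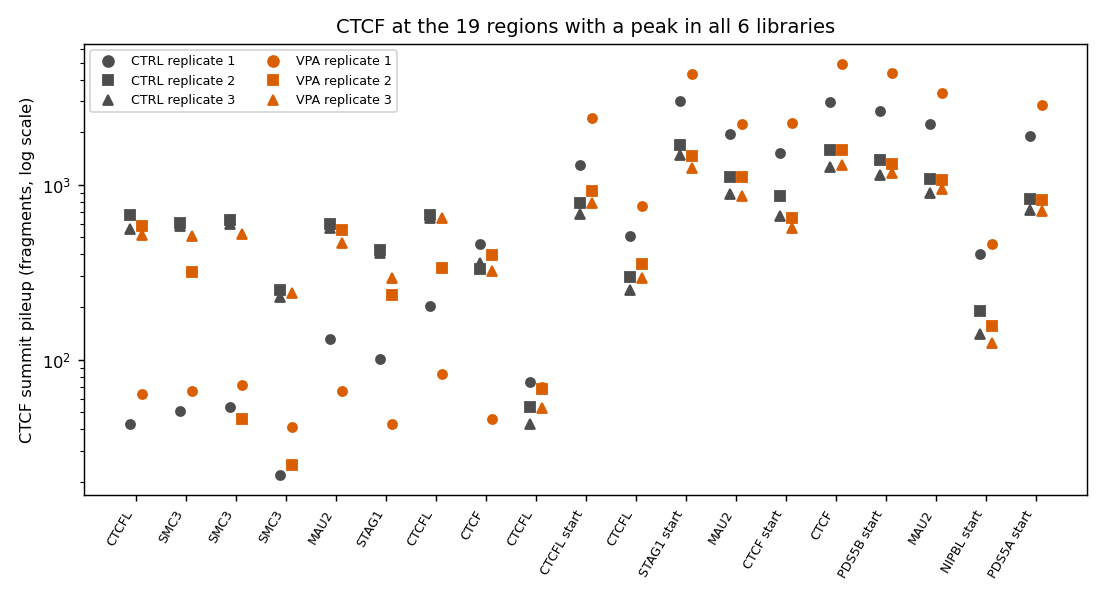
CTCF summit pileup (fragments, log axis) at the 19 regions shared by all 6 libraries, ordered by the CTRL log2 ratio of replicate 1 to replicates 2 and 3 and labelled by gene; circles, squares and triangles are replicates 1, 2 and 3 of CTRL (grey) and VPA (orange). Circles lie far below the squares and triangles at the left and above them at the right, while CTRL and VPA replicates 2 and 3 mostly lie together.

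The last comparison asked how often CTCF summits at these genes lay inside H3K27ac, a consensus of peaks in 2 of 3 libraries of the same treatment. The share was 7 of 24, 10 of 32 and 9 of 33 in CTRL (29.2%, 31.3% and 27.3%) and 11 of 27, 12 of 29 and 13 of 33 in VPA (40.7%, 41.4% and 39.4%). The groups did not overlap. Over all CTCF summits the mean share (SD, n = 3) was 18.4% ± 1.63 for CTRL libraries and 25.7% ± 4.27 for VPA libraries. Those groups did not overlap either, with 17.3% to 20.3% in CTRL and 22.1% to 30.4% in VPA. When the VPA summits were set against the CTRL H3K27ac regions instead, the members' share was 28.2% ± 1.28 (SD, n = 3), next to 29.2% ± 1.99 for the CTRL summits. The difference of 11.3 percentage points at the members, beside 7.28 over all CTCF summits, was 4.53 with H3K27ac required in 3 of 3 libraries. With that requirement the share over all summits was 17.2%, 15.3% and 14.8% in CTRL and 24.9%, 20.2% and 18.0% in VPA.

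Genes of the same pathway outside the 10 were counted in the same way. The list held 12 regulators and meiotic subunits, such as the acetyltransferases ESCO1 and ESCO2 and separase (ESPL1), and 8 condensin genes. H3K27ac peak counts separated, higher in VPA, at ESCO1 (2, 1 and 1 against 4, 3 and 4), SMC4 (4, 4 and 3 against 5, 6 and 6) and NCAPD3 (1, 1 and 1 against 2, 3 and 2), which is 3 of 20, and were lower without overlap at 0 of 20. Over all genes with H3K27ac, 12.1% had higher counts in VPA without overlap and 0.175% lower. The bp under H3K27ac peaks separated at 8 of 20, all higher, at REC8, RAD21L1, ESCO1, ESCO2, CDCA5, ESPL1, NCAPD3 and NCAPH, beside 31.6% of all genes higher and 0.187% lower. With the CTCF antibody, 0 of the 20 genes separated in either measure. Over all genes with CTCF, 0.39% were higher and 0.875% lower in peaks, and 1.26% and 1.86% in bp.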

How the data were processed

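The deposited files are peak lists of 12 ChIP libraries, and the 6 input libraries were not analysed here. Per the submitters' processing notes, Bowtie2, MACS3 3.0.0a7 and DiffBind were used with hg38, and the authors called peaks in each library at a q-value of 0.05. The input libraries served for coverage tracks, and whether they served in peak calling is not given in the sources used here. Each deposited peak holds a score, a fold enrichment (ratio) over local background, and its significance as a −log10 p and a −log10 q-value, all from the authors' peak caller. Solving the fold and the −log10 p of a peak together gave its summit pileup and local background, and 99.9975% or more of the pileups of a list came out whole (within 0.05). Levels in each merged region came from the highest peak of a library. Log2 fold enrichment, centred on each library's median over regions with a peak in all 6 libraries, was tested with limma 3.58.1 (R 4.3.3), with Benjamini-Hochberg adjustment over all such regions. The test was checked on artificial data with known answers. Their noise was independent between libraries, so the check did not cover deviations shared between libraries. Counts per locus were compared by exact two-sided permutation tests, whose smallest p is 0.1. Python 3.11.15 and GENCODE 44 were used. Groups came from the labels. A further marker gene of the kidney list is not reported here. Same-numbered H3K27ac libraries shared their deviations from the group means (correlations 0.865, 0.585 and 0.591), so the numbers were taken to pair those libraries, although replicates 2 and 3 correlated about as well across numbers (0.607 and 0.554). The members, the gene lists and the tests were chosen with earlier results of these data known. The rule for named regions was the region at each gene's start (within 1 kb), regions with a peak in 3 of 3 libraries of only 1 treatment, regions past an adjusted p of 0.05, and the CTCF region of highest mean rank per locus. Other pathway genes were named where their groups did not overlap. Regions called only in the recovered pileup, those under CTCF peaks, and others given for contrast were added after their values were seen.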

Additional observations from a re-analysis of the deposited data

How the results depend on the processing

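Alternatives were another scaling, the rank within a list, a −log10 q-value of at least 3, equal list lengths, other locus limits, the replicate block and leaving out each library in turn. The recovered pileup, its ratio to background coverage and replicates 2 and 3 only were added after seeing the data. The cause of each shift below was not tested. Of the 15 H3K27ac regions shared by all 6 libraries, limma called 0 in fold enrichment and 3 with the replicate block, all 3 lower. It called 3 in replicates 2 and 3 only, the starts of STAG1 and PDS5B lower and the PDS5A intron higher (2.62% of all shared regions lower, 3.80% higher). In the rank within a list it called 5, all higher and none of them a start (0.766% lower, 40.6% higher). It called 10 in the recovered pileup (8 lower), 13 in the pileup with the replicate block (9 lower) and 7 in the pileup over background coverage (6 lower; 14.4% lower and 3.96% higher in all). The sign at the start turned from lower to higher in fold enrichment after quantile normalization at NIPBL (0.0332), RAD21 (0.121) and CTCF (0.0368, log2). It also turned in the rank within a list at PDS5A (0.29), NIPBL (0.73), RAD21 (0.54), SMC3 (0.0387), CTCF (0.64) and MAU2 (2.34 percentile points). None of the 19 CTCF regions was called in any of the 15 alternatives.

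The number of genes with more H3K27ac peaks in VPA and no overlap, 2, was 4 with a −log10 q-value of at least 3, 0 with equal list lengths and 2 to 4 when libraries were left out, with 4 without CTRL replicate 3. For the covered length the number was 5, and 8 genes were higher in all 3 pairs of the replicate block. For CTCF peaks it was 0, with 0 to 1 when libraries were left out and 1 with replicates 2 and 3 only. For the CTCF covered length it was 0, with 0 to 3 when libraries were left out (3 without VPA replicate 1, 1 without CTRL replicate 2) and 3 with replicates 2 and 3 only. The 2 H3K27ac regions found only in VPA became 0 with equal list lengths, 1 with the summit required in the locus, 0 for the gene body alone, 5 with replicates 2 and 3 only, and 2 to 5 when libraries were left out (5 without VPA replicate 1). The motif share of 37.8% fell to 8.11% at 4 mismatches, where all regions gave 8.83%. The difference in the share of CTCF summits inside H3K27ac, 11.3 points at the members beside 7.28 over all summits, was 4.53 at the members with 3 of 3 libraries. The larger difference at the members did not hold there. All summits then had shares of 17.2%, 15.3% and 14.8% in CTRL and 24.9%, 20.2% and 18.0% in VPA.

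Same-numbered CTCF libraries did not pair (correlations 0.340, -0.0451 and 0.477), and the block called 0 CTCF regions. Read depth is unknown, and 3 libraries per group cannot give an exact p below 0.1.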
